A study of Mus musculus with 2 samples.

Results

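Integrins, laminins and the proteins that link basement membranes to cells were followed in mouse liver mesothelial cells, the epithelial-like sheet on the surface of the organ. Members were the probe sets with 1 platform gene symbol that names an integrin alpha chain, an integrin beta chain numbered with 1 digit or a laminin chain, or that is Nid1, Nid2, Hspg2, Agrn or Dag1. The rule used no measured value. It found 85 of 45037 probe sets, which belong to 39 of 18193 genes: 24 integrin chains, 10 laminin chains and 5 linkers. The series holds 2 Affymetrix arrays, 1 per group. One array was hybridised with RNA of PCLP1+ cells from livers of C57BL/6 embryos at embryonic day 12.5 (E12.5), the other with RNA of Mesothelin+ cells from livers of 8 weeks old C57BL/6 mice. In both groups livers were digested with collagenase, cells were sorted with 1 antibody, and 10 ng of total RNA was amplified in 2 cycles. Whether animals were pooled is not given in the sources used here.

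Laminins are heterotrimers of an alpha, a beta and a gamma chain that polymerise into the sheet on which a basement membrane is built. Nidogens, perlecan and agrin tie that sheet to collagen IV and to the cell surface, where integrins, heterodimers of an alpha and a beta chain, and dystroglycan hold it. In the kidney glomerulus, where this is well described, laminin alpha 1 and beta 1 of the early basement membrane give way to alpha 5 and beta 2 as it matures.

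With 1 array per group, no test, p-value or SD between samples was possible, and the array, the stage and the antibody used for sorting cannot be told apart. Signals are linear array intensities, and adult signals were divided by 0.680, the ratio of the array medians that the authors used in their own ratio. A probe set was taken as detected where its deposited call was present, and where a gene had several detected probe sets, the one brightest over both arrays (mean log2 signal) stands for it. A difference was called where it reached 2-fold. A fold against an array with an absent call is a lower bound. As a yardstick, log2 differences of probe sets of 1 gene varied with a pooled SD of 0.62 over 4279 genes. All 10 genes of the mesothelial marker list were detected on both arrays. Wt1 (2152 at E12.5 and 2228 in adult) and Upk3b (10114 and 18571) were among the 4 within 2-fold. Past 2-fold, 5 lay towards adult (Msln, Gpm6a, Lrrn4, Upk1b and Krt19) and 1, Podxl, lay towards E12.5. The list had a median log2 difference of -1.36 and summed signals of 32757 and 76287, sorting antigens included. RNA length, read as the signal of a control gene's 3' end over that of its 5' end, differed between the arrays: the adult ratio was 6.81 for Gapdh and 3.47 for beta-actin, against 2.07 and 1.93 at E12.5. The genes of the sorting antigens went with the sort, with Podxl (PCLP1) at 6069 and 1807 and Msln at 48.5 and 11835. In sorted bulk RNA fewer cells of a type and less RNA per cell cannot be told apart.

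The embryonic array had higher signals for laminin alpha 1, beta 1 and gamma 1 and for the integrin chains alpha IIb, alpha 4, alpha X, beta 3 and beta 8. The adult array had higher signals for laminin alpha 2, alpha 3, alpha 4 and beta 2 and for the integrin chains alpha 1, alpha 10 and beta 4. The linkers and dystroglycan lay within 2-fold. Of the arrays 1 or both detected 33 of the 39 genes: by the probe set that stands for the gene, 24 on both, 3 only at E12.5 and 6 only in adult. Lamc3, one of these 6, had a dimmer probe set present on both arrays. Among all 18193 genes, 12801 were detected: 10154 on both arrays, 1388 only at E12.5 and 1259 only in adult. Of the 33 genes, 8 (24.2%) were higher at E12.5 by 2-fold or more, where 29.1% of the 12801 detected genes of the arrays were. In adult 7 of 33 (21.2%) were at least 2-fold higher, against 17.0% of detected genes, and 18 lay within 2-fold. Both shares are near those of all genes. Over the 24 genes whose representing probe set was present on both arrays the counts were 6 and 3, against 27.1% and 13.2% of all such genes. The median log2 difference of the 33 genes was 0.05, against 0.35 for all detected genes. Of the 8 genes 2, Lama1 and Itga2b, and of the 7 genes 3, Lama2, Lama4 and Itga1, were also past 4-fold, which 10.2% and 8.37% of detected genes were.

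**Figure D1:**
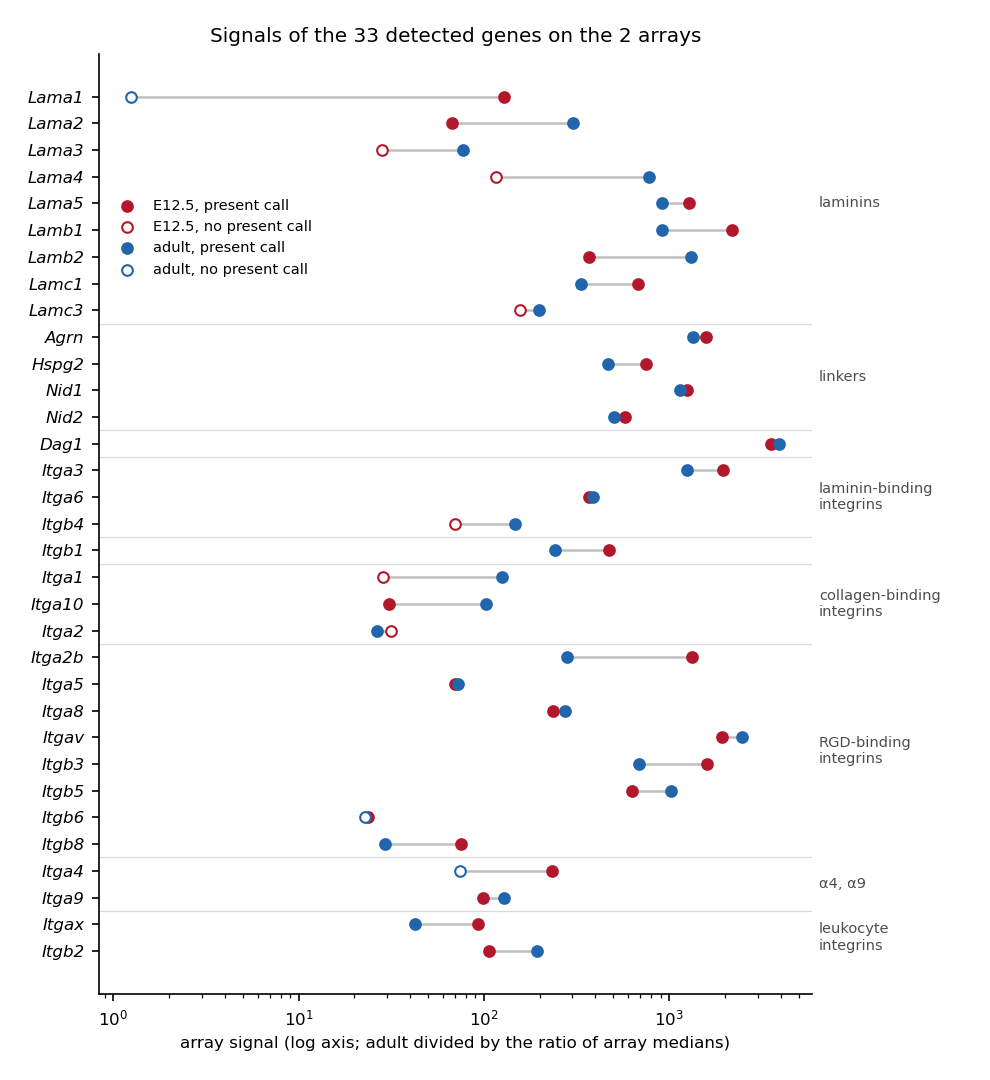
Signals of the 33 detected genes on the arrays of E12.5 (red) and adult (blue) cells, 1 array each, on a log axis. Filled points have a present call and open points none. Lama1 lies far apart (128 and 1.25, the latter without a present call), while the nidogens and Dag1 nearly coincide.

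The sequence before the transcription start was compared, as a feature the choice of genes did not use. RefSeq promoter windows (GRCm38.p6) matched 26 of the 39 genes by gene number. The 250 bases before the outermost start among the windows of a gene were taken. The 9 called genes with a window held between 0 and 14 CpG dinucleotides (median 5). The 14 genes within 2-fold held between 10 and 35 (median 18.0). Over all detected genes the same medians were 14 for 4686 called genes and 16 for 5615 genes within 2-fold, and with so few windows this is a description only. A GC box, GGGCGG on either strand, was found in 2 of the 9 and 9 of the 14 windows, and in 33% of the windows of all genes. These are 27025 windows of genes detected here or not, with a median of 6 CpG dinucleotides, so this share is not matched to detected genes. A TATA box, TATAAA on either strand, was found in none of the 26 windows and in 13.0% of the same 27025 windows. Shown are 2 genes within 2-fold, Itgb1 and Itgb5, and 2 called ones, Itga2b and Lamb2. They run 5' to 3' on the strand of the gene, CpG dinucleotides are in capitals, and bases inside an annotated gene were left out. This cut Lamb2 to 235 bases, since the end of its window lay inside the annotated Lamb2 gene.
Itgb1 (chr8:128685404-128685653, plus strand): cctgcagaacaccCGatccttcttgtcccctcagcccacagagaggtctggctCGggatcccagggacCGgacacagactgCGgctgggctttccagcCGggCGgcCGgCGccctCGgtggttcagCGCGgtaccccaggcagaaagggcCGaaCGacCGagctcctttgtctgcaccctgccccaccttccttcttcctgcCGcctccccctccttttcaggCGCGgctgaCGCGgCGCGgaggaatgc
Itgb5 (chr16:33829415-33829664, plus strand): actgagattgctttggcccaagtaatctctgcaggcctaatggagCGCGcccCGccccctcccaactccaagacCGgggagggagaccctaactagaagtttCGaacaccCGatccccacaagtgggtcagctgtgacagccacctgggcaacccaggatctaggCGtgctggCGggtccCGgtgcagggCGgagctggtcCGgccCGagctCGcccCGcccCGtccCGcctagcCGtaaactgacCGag
Itga2b (chr11:102469884-102470133, minus strand): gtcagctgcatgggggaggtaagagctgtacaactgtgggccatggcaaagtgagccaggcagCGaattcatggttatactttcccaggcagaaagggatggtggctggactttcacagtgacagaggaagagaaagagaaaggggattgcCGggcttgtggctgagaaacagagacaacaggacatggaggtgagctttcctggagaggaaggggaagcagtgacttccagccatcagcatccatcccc
Lamb2 (chr9:108479612-108479846, plus strand): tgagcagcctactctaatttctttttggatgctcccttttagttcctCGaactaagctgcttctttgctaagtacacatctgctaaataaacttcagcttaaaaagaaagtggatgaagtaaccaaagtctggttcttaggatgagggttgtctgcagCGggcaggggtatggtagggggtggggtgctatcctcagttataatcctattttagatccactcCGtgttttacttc
The windows of Itgb1 and Itgb5 hold 21 and 18 CpG dinucleotides, those of Itga2b and Lamb2 hold 2 and 3.

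Laminin alpha chains decide which receptors a trimer binds, and 4 of the 5 alpha chain genes differed at least 2-fold between the arrays, 1 towards E12.5 (29.1% of detected genes) and 3 towards adult (17.0%). With so few genes these counts are descriptions. Lama1, the alpha chain of early embryonic basement membranes, had 128 at E12.5 and 1.25 with an absent call in adult. By the bound used here, which divides by the lowest detected adult signal, it was at least 22-fold higher at E12.5. That was the largest difference among the 33 genes, but its size depended on this choice. With signals floored at 32 the log2 difference of Lama1 was 2.00, smaller in size than those of Lama4 (-2.74), Itga2b (2.25) and Lama2 (-2.16). With a pseudocount of 16 it was 2.72. Lama4, the alpha chain of vessel and mesenchymal laminins, had 116 with an absent call at E12.5 and 776 in adult. It was at least 6.67-fold higher in adult, and its dimmer probe set had 13.7 (absent) and 25.6. Lama2, whose loss causes a muscular dystrophy, had 67.3 and 301, both with present calls, and was 4.48-fold higher in adult. Lama3, the alpha chain of epidermal laminin, had 28.3 (absent) and 77.5 and was at least 2.74-fold higher in adult, a call it lost with no scaling of the arrays (log2 -0.90). A further Lama3 probe set was absent on both arrays. The alpha chain that did not differ 2-fold was Lama5, a chain of mature epithelial basement membranes. It had 1274 and 911 by one probe set and 1206 and 839 by another, which are 1.40-fold and 1.44-fold higher at E12.5.

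The beta chains went opposite ways. At E12.5 the signal of Lamb1 was 2195, in adult 910.5, a 2.41-fold difference towards E12.5, and its next detected probe set had 218 and 128 (1.70-fold). Lamb2, the beta chain of kidney glomeruli and neuromuscular junctions, had 367 and 1309 and was 3.56-fold higher in adult. On the log2 scale the differences were 1.27 and -1.83, so that Lamb1 relative to Lamb2 was 8.58-fold higher at E12.5. This ratio of ratios does not depend on how the arrays were scaled by a constant. It rests on the brightest Lamb1 probe set and the only Lamb2 probe set. With the next Lamb1 probe set (log2 0.77) it would be smaller. Lamb3, the beta chain of epidermal laminin, was absent on both arrays (17.8 and 28.3).

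Among the gamma chains, Lamc1, shared by most laminins, had 676 and 335 and was 2.02-fold higher at E12.5, at the edge of the threshold. Lamc3, a gamma chain of few tissues, had 156 with an absent call and 199.5 by its brighter probe set, and 69.6 and 125 with present calls by the other. Neither reached 2-fold.

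Set together by known trimers, the chains of laminin-511, laminin-521, laminin-211 and laminin-221 were all detected on both arrays. Those of laminin-111 and laminin-121, which contain Lama1, were complete at E12.5 alone. Those of laminin-411 and laminin-421, which contain Lama4, were complete in adult alone. Detection of all chains says that the RNAs were on the array, not that 1 cell makes the trimer. Vessel and mesenchymal cells also make Lama4 and Lama2. Of 9 detected endothelial markers (10 listed) 3 were at least 2-fold higher in adult and none at E12.5, with summed signals of 2233 and 14624. Those 3, Clec4g (91.9 and 6765), Kdr (399.8 and 3857) and Stab2 (356 and 2485), made up most of the adult sum. The other 6 lay within 2-fold, and the list had a median log2 difference of -0.23. Pecam1 was detected on neither array. Of 10 stellate cell, pericyte and fibroblast markers, 5 lay 2-fold or more towards E12.5 and 3 towards adult (summed signals 9462 and 7138). The 5 were Col1a1 (4503 and 501), Reln, Hgf, Pdgfrb and Rgs5. The 3 were Thy1 (38.4 and 821), Eln and Lrat (absent at E12.5 and 39.9 in adult). Of 10 hepatoblast and hepatocyte markers, 9 lay 2-fold or more towards E12.5 and 1 towards adult (summed signals 32196 and 2959). The part of all these cells, and of RNA length, in the laminin differences was not tested.

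**Figure D2:**
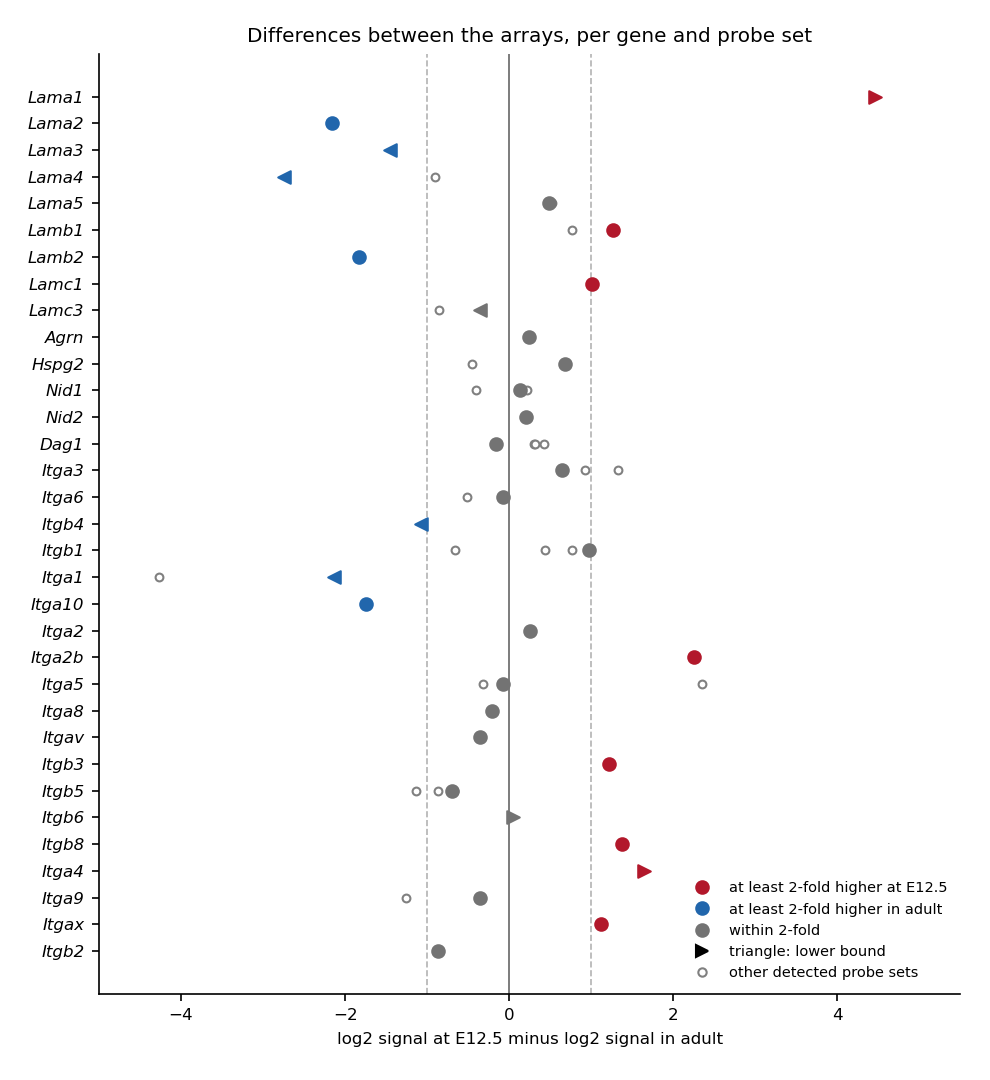
Difference in log2 signal, E12.5 minus adult, for the 33 detected genes. Large symbols are the probe set that represents the gene (triangles are lower bounds, and Itga2, brighter where its call was absent, is drawn as measured), small open circles are other detected probe sets of the gene, and dashed lines mark 2-fold. Lama1 (4.46) and Lama4 (-2.74) lie at the ends, and the probe sets of Itga5 spread between -0.32 and 2.35.

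The linkers of the laminin sheet lay within 2-fold in 4 of 4 genes, as did 6898 of the 12801 detected genes of the arrays. Nidogen 1 (Nid1), which bridges laminin gamma 1 to collagen IV, had 1256 at E12.5 and 1151 in adult. Its relative Nid2 had 578 and 504. Agrn, the heparan sulfate proteoglycan agrin, which binds laminin and dystroglycan, had 1581 and 1340.2. These 3 genes were between 1.09-fold and 1.18-fold higher at E12.5, well inside the yardstick. Perlecan (Hspg2) was 1.61-fold higher at E12.5 by its brighter probe set (754 and 469) and 1.36-fold higher in adult by the other (135 and 184). Its direction was therefore not settled, and that of Nid1 was not either, since its 3 probe sets gave log2 differences between -0.40 and 0.22.

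Dystroglycan (Dag1), a laminin receptor cut into an outer and a membrane-spanning subunit, had 3527 and 3938 by its brightest probe set. The other 3 probe sets were 1.23-fold to 1.35-fold higher at E12.5, so that no direction can be given. Of the 10 detected genes of the dystroglycan complex list (13 listed), 4 were at least 2-fold higher in adult (17.0% of detected genes) and 1 at E12.5 (29.1%). Those in adult were the dystrobrevin Dtna (27.1 and 119, 4.38-fold), the syntrophin Sntb2 (262 and 884, 3.37-fold), the sarcoglycan Sgce (507 and 1563, 3.08-fold) and Sgcd, at a low signal (absent and 32.1). The 1 at E12.5 was the syntrophin Sntb1 (50.8, absent in adult). Enzymes that build the laminin-binding sugar of dystroglycan lay within 2-fold in 8 of 8 detected genes (12 listed). Among all 12801 detected genes 6898 did. The log2 differences of the enzymes lay between -0.50 and 0.60. The largest were those of Pomgnt1 (550.2 and 364), B3galnt2 (539.6 and 383), Rxylt1 (408 and 578) and Pomt2 (103 and 128).

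Of the 4 laminin-binding integrin chains, Itga3 and Itga6 were detected on both arrays. Itga3, the alpha 3 chain that binds laminins with alpha 5, had 1953 and 1246, a 1.57-fold difference towards E12.5. Both other Itga3 probe sets also lay towards E12.5 (404 and 213, and 87.6 and 34.7, adult calls absent). Itga6, the alpha 6 chain, had 368 and 387, and 148 and 210.1 by its dimmer probe set. Its partner in hemidesmosomes, Itgb4, had 70.2 with an absent call and 147, at least 2.09-fold higher in adult and close to the threshold. Itga7, the alpha chain of muscle, was absent on both arrays.

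Itgb1, the beta 1 chain shared by most of these receptors, had 475 and 242 and was 1.96-fold higher at E12.5, just inside 2-fold. Next in brightness came probe sets at 348 and 256, and at 66.1 and 38.7, both towards E12.5. The dimmest detected one (7.70, and 12.2 with an absent call) went the other way.

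Of the 3 collagen-binding integrin chains 2 were at least 2-fold higher in adult, where 17.0% of detected genes were. Itga1, the alpha 1 chain that prefers collagen IV, had 28.7 with an absent call and 126, at least 4.37-fold higher in adult. A dimmer Itga1 probe set went the same way (0.938, absent, and 18.0). Itga10, known from cartilage, had 30.6 and 102 and was 3.35-fold higher in adult. Itga2, the collagen receptor of platelets and epithelia, had 31.4 with an absent call and 26.4 with a present call, so that no fold is given. All of these signals were low. Itga10 and Itga2 rest on 1 probe set each, and the deposited table gives that of Itga10 a further symbol. Itga11 was not analysed here.

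Integrins that bind the RGD sequence of fibronectin and vitronectin, and related chains, were higher at E12.5 by 2-fold or more for 3 of 8 genes (37.5%, against 29.1% of detected genes), and none of the 8 was 2-fold higher in adult (17.0%). With detected genes centred, Itga2b alone of the 3 kept its call. Itga2b, the alpha IIb chain of the platelet fibrinogen receptor, had 1332 and 281, 4.74-fold higher. Itgb3, the beta 3 chain that pairs with alpha IIb or alpha V, had 1604 and 689, 2.33-fold higher. Itgb8, a beta chain that activates latent TGF-beta with alpha V, had 75.4 and 29.2, 2.59-fold higher at low signals. Markers of megakaryocytes and platelets, the cells in which alpha IIb beta 3 is best known, moved the same way. Of 8 listed, 6 were detected and all 6 were higher at E12.5 by 2-fold or more, with Pf4 at 9256 and 401, Gp1bb at 1041 and 48.1, and summed signals of 14415 and 818. Gp9 and Treml1 were absent in adult. Fermt3, the kindlin of blood cells, was 3.58-fold higher at E12.5 too (2846 and 795), whereas Fermt2, the kindlin of other tissues, had 2595 and 2007. The part of these cells in the signals of Itga2b and Itgb3 was not tested.

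The remaining RGD-binding chains lay within 2-fold. Itgav, the alpha V chain, had 1935 and 2488. Itgb5, a beta chain of vitronectin receptors, had 630.4 and 1024 and was 1.62-fold higher in adult, with all 4 of its probe sets in that direction (1.59-fold to 2.20-fold). The log2 differences of Itgb3 and Itgb5, 1.22 and -0.70, stood 3.78-fold apart. Itga8, which binds nephronectin, had 237 and 275. Itga5, the fibronectin receptor chain, had 69.5 and 72.8 by the probe set that represents it, but 103 and 20.2 (absent in adult) by another, at least 5.08-fold higher at E12.5. Its probe sets therefore disagreed beyond the yardstick. Itgb6, a beta chain of epithelia, had 23.6 and 22.8, the latter with an absent call.

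Itga4, the alpha 4 chain that binds VCAM-1 and fibronectin on blood cells and in the embryonic epicardium, had 232 at E12.5 and 74.4 with an absent call in adult. The difference towards E12.5 was at least 3.12-fold, and its 4 other probe sets were absent on both arrays. Erythroid markers, cells in which Itga4 is also known, were higher at E12.5 by 2-fold or more in all 7 detected genes (10 listed), and none of these had a present call in adult, with summed signals of 2472 and 137. Their part was not tested. Itga9, a related alpha chain that binds tenascin and osteopontin, had 99.2 and 128, and 54.9 and 132 by another probe set, 1.29-fold and 2.40-fold higher in adult. Vcam1 itself, a ligand of both, had 273 and 482, 1.77-fold higher in adult.

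Leukocyte integrins were largely not detected, although macrophage genes were high on the adult array. Itgal, Itgam, Itgae and Itgb7, chains of lymphocytes and myeloid cells, had no present call, at signals of up to 67.9 at E12.5 and 192 in adult. Itgb2, the beta chain common to the leukocyte group, had 106 and 193 and was 1.82-fold higher in adult. Itgax, the alpha X chain of dendritic cells and macrophages, had 92.5 and 42.5 and was 2.17-fold higher at E12.5, a call lost with detected genes centred (log2 0.74) or with a pseudocount (0.89). Of 12 macrophage and leukocyte markers 11 were at least 2-fold higher in adult and none at E12.5, with summed signals of 2291 and 26860.5, and Clec4f and Vsig4 were absent at E12.5. Of 9 lymphocyte markers with a probe set (11 listed) 1, Cd8a, had a present call, at a signal of 8.57 at E12.5. The part of these cells in the signals of Itgb2 and Itgax was not tested.

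By known heterodimers, both chains were detected on both arrays for 12 of 22 integrins, among them alpha 3 beta 1, alpha 6 beta 1, alpha 8 beta 1 and the alpha V integrins with beta 1, beta 3, beta 5 and beta 8. Both chains were detected only at E12.5 for alpha 4 beta 1 and alpha V beta 6. In adult alone they were detected for alpha 1 beta 1, alpha 2 beta 1 and alpha 6 beta 4. For alpha V beta 6 and alpha 2 beta 1 the arrays differ in the call and hardly in signal. Itgb6 had 23.6 and 22.8, and Itga2 was brighter at E12.5, where its call was absent (31.4 and 26.4). The other 5 integrins lacked a detected chain on each array.

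**Figure D3:**
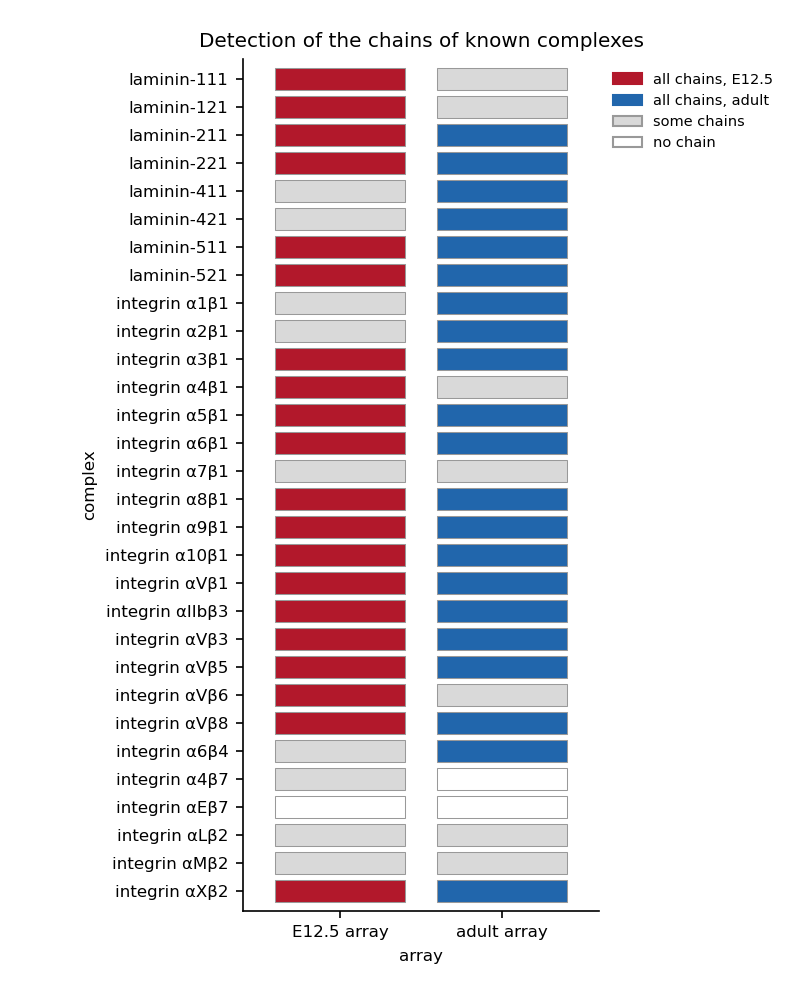
Detection of the chains of 8 laminins and 22 integrins on each array. Red (E12.5) and blue (adult) boxes mark complexes whose chains all had a present call, grey boxes those with some chains detected and white boxes those with none. Laminin-111 and laminin-121 are complete at E12.5 alone, laminin-411 and laminin-421 in adult alone.

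Genes that act with these receptors and matrix proteins were counted over lists, each read against the 29.1% and 17.0% of detected genes called towards E12.5 and adult. Of 19 detected integrin adaptors and kinases (22 listed) 15 lay within 2-fold, 3 were higher in adult and 1 at E12.5, with a median log2 difference of 0.02. Integrin-linked kinase (Ilk) had 1749 and 1724, and talin 1 (Tln1), which switches integrins on, 1488 and 1942. Those apart from Fermt3 that differed were Lims2, an adaptor of Ilk (absent at E12.5 and 1339 in adult, at least 11.3-fold), and the tensins Tns3 (2859 and 9274, 3.24-fold) and Tns1 (528 and 1265, 2.39-fold), which bind beta chain tails. Of 10 detected integrin binding regulators (12 listed) 4 were higher in adult and none at E12.5. They were the tetraspanins Cd9 (155 and 642, 4.15-fold), Cd151, a partner of alpha 3 beta 1 (3175 and 11104, 3.5-fold), and Cd82 (574 and 1604, 2.79-fold), and Cd47 (669 and 2536, 3.79-fold).

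Of 17 other basement membrane proteins and receptors, all detected, 7 were at least 2-fold higher in adult and 3 at E12.5 (median -0.63). In adult Ntn4, a netrin that binds laminin gamma chains and breaks up laminin networks, had 60.1 and 809 (13.5-fold). The syndecan Sdc4 had 475 and 2663 (5.61-fold) and the collagen receptor Ddr2 415 and 1473 (3.55-fold). At E12.5 the syndecan Sdc1 had 1563 and 257 (6.09-fold). The laminin alpha 5 receptor Bcam stood at the threshold, with 592 and 1191 (2.01-fold higher in adult). Of 12 detected partners that bind integrins or laminins (13 listed) 7 lay past 2-fold towards E12.5 and 2 towards adult. These 7 were the fibrinogen genes Fgb, Fgg and Fga (at least 30.7-fold, 15.1-fold and 8.84-fold), Tnc (266, absent in adult, at least 20.3-fold), Thbs1, Madcam1 and Vtn. The fibrinogens and Vtn are plasma proteins of hepatocytes, and of 10 hepatoblast and hepatocyte markers, which include Fgb and Fgg, 9 were higher at E12.5 (summed signals 32196 and 2959). Their part in this count was not tested. In adult Icam1, a ligand of beta 2 integrins, had 321 and 2258 (7.04-fold) and the galectin Lgals8 127 and 811 (6.37-fold).

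**Figure D4:**
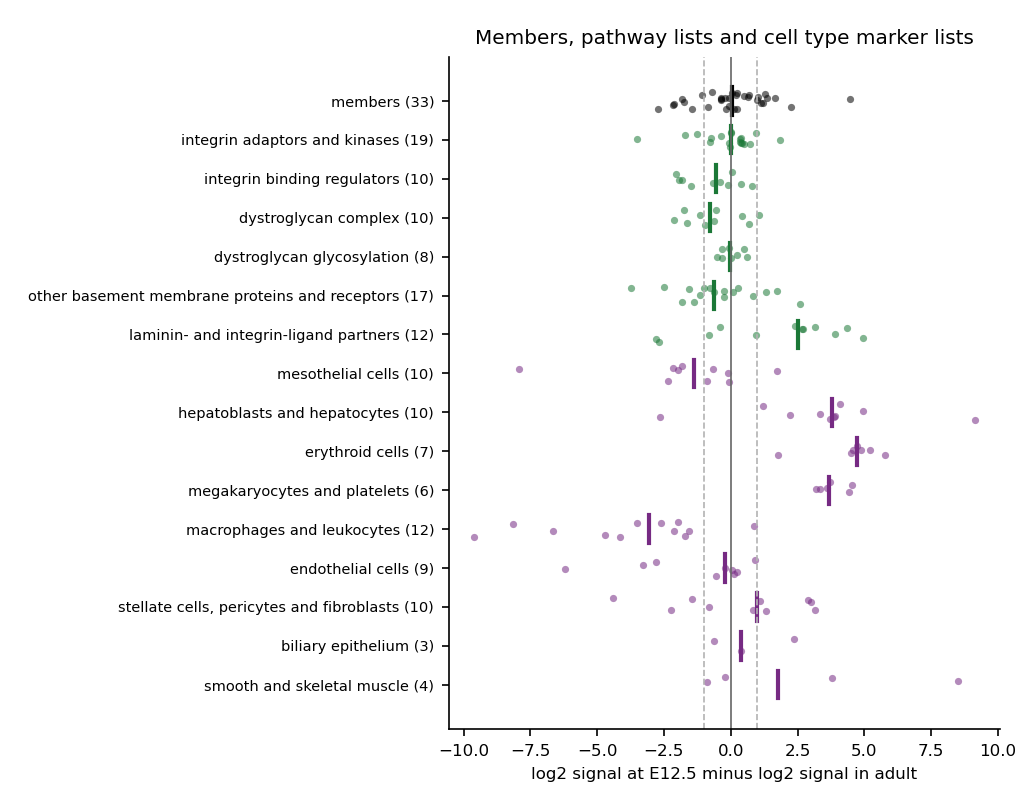
Difference in log2 signal, E12.5 minus adult, for the 33 detected members (black), genes of the pathway lists (green) and cell type markers (purple), with the number of genes in brackets. Each point is a gene, shifted vertically at random to separate points, bars are medians (Itga2, which has no fold, enters as measured) and dashed lines mark 2-fold. The members centre near 0 (median 0.05), while the erythroid, hepatoblast and megakaryocyte markers lie towards E12.5 and the macrophage markers towards adult.

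The calls depended on the scaling of the arrays to different degrees. None of the 15 called genes changed direction under no scaling, quantile normalization or centring of the detected genes. Lama1, Lama2, Lama4, Lamb2, Itga1, Itga10, Itga2b and Itga4 kept their call under each of the 10 or 11 alternatives that gave a value. Lamb1 dropped to 0.89 on the log2 scale after quantile normalization and after centring, and to 0.77 without probe sets that may match several transcripts. Lamc1 (0.69 and 0.64) and Itgb3 (0.84 under both) also fell inside 2-fold under these scalings. Centring took Itgax (0.74) and Itgb8 (just under 1) inside too. With no scaling Lama3 (-0.90) and Itgb4 (-0.51) lost their call, and Hspg2 (1.24), Itga3 (1.2), Itgb1 (1.53) and Lama5 (1.04) gained one towards E12.5. With a pseudocount Itgax (0.89), Itgb4 (-0.92) and Lamc1 (0.98) lay inside 2-fold. Itgb5 and Itgb2 came past it towards adult, at -1.07 and -1.24 with detected genes centred. Of the 18 genes within 2-fold, 12 changed sign with the scaling, among them Nid1, Nid2, Agrn, Dag1 and Itgav.

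**Figure D5:**
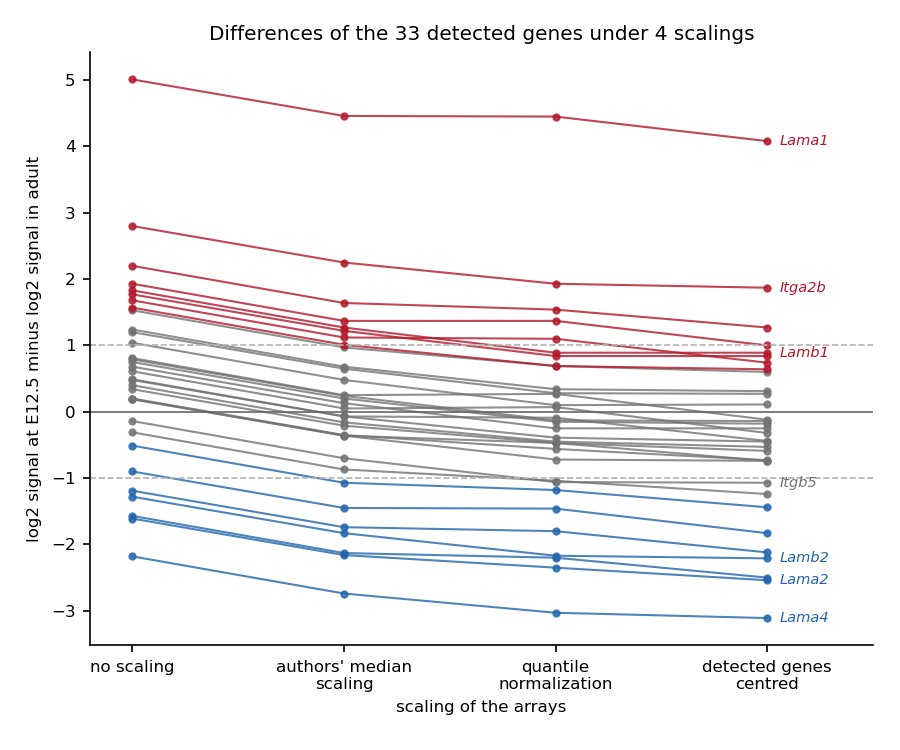
Difference in log2 signal, E12.5 minus adult, of the 33 detected genes under 4 scalings of the arrays. Lines are genes, red and blue for those called towards E12.5 and adult in the authors' scaling and grey for those within 2-fold, and dashed lines mark 2-fold. Lama1, Itga2b, Lama2, Lama4 and Lamb2 stay past 2-fold throughout, while Lamb1 crosses the line.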

How the data were processed

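RNA of 2 sorted cell samples was measured on 1 Affymetrix array each. Per the file headers, the authors deposited a raw signal, a linear intensity, and a detection call (present, marginal or absent) for each of 45101 probe sets. They also deposited a ratio of the adult to the E12.5 array, which, tested on the values, is the adult signal over 0.680 times the E12.5 signal, and a value table with the raw signals, rounded. The submitters' processing notes name Affymetrix Expression Console, and the summarization method is not given in the sources used here.

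Python 3.11.15 with pandas 2.3.3 was used. Adult signals were divided by 0.680, and 64 control probe sets were set aside. Symbols come from the platform annotation, updated by gene number through RefSeq (GRCm38.p6). Differences are log2 E12.5 minus log2 adult with no pseudocount, and log2 values were computed here from the deposited intensities. For a lower bound, the dim side was the larger of 2 signals, that of the probe set itself and the lowest one detected on its array (E12.5 4.57, adult 5.84). A gene with a marginal call on the dim array keeps its measured fold. The medians include bounds, and Itga2 as measured. All members are named, and from each pathway list up to 4 genes with the largest difference. Some further genes, such as Ilk, Tln1, Fermt2, Vcam1 and Bcam, were chosen after their values were seen. Members and lists were chosen with earlier results of these data known. 1 laminin item is not reported here. The counting was tested on simulated data in which both arrays had the same calls, so the rule for lower bounds was not tried. The simulated noise was smaller than the spread between probe sets of a gene. The number of arrays limits the precision. No depth or replicate error can be given.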

Additional observations from a re-analysis of the deposited data

How the results depend on the processing

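The counts of 8 genes called towards E12.5 and 7 towards adult, and the median of 0.05, were recomputed under other settings. The count towards E12.5 was 5 after quantile normalization, 3 with detected genes centred on a median of 0 and 2 at a threshold of 4-fold. The count towards adult was 12 with no detection filter, where 39 genes entered, 3 over the 24 genes present on both arrays and 3 at 4-fold. Of all genes 19.7%, 13.2% and 8.37% were called towards adult under the same settings. Under the other settings both counts stayed within 1.5 times. The share of all genes called towards E12.5 was 46.5% with no scaling, 23.2% after quantile normalization and 19.4% after centring. Towards adult it was 11.5%, 20% and 22.9%. Of the 33 members 12, 5 and 3 were called towards E12.5 under these scalings, and 5, 9 and 9 towards adult. At 4-fold 10.2% of all genes were called towards E12.5. The median of the members turned to -0.15 after quantile normalization, -0.32 with centring, -0.16 with no detection filter and -0.01 with members taken by the symbols of the deposited table, an alternative added after seeing the data. It was 0.61 with no scaling and 0.16 over genes present on both arrays. The median of all genes was 0.12 after quantile normalization, -0.02 with centring, 0.27 with no detection filter and 0.35 with deposited symbols. With no scaling the median of all genes was 0.91, and over genes present on both arrays 0.37. The members had the lower median under each of these settings. Of 350 values of single genes under alternatives none of a called gene changed sign and 6 moved by more than 0.62. No paired analysis was possible because each group has 1 array. The low signals of Itgb6, Itga2 and Itgb8 rest on 1 detected probe set each. So do the calls of Lama1, Lama2, Lamb2, Itga2b, Itga10, Itgax and Itgb4, which have 1 probe set in all. Lama3, Lamc1, Itga4 and Itgb3 have several probe sets, of which 1 was detected.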
